A study of Mus musculus with 6 samples.

Results

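Neutrophil granule genes were followed in sorted mouse bone marrow cells, grouped by the stage of neutrophil maturation at which their products are made. The 10 genes were 4 of the primary (azurophil) granules, Mpo, Elane, Prtn3 and Ctsg, 4 of the secondary (specific) granules, Ltf, Camp, Ngp and Lcn2, and 2 of the tertiary (gelatinase) granules, Mmp8 and Mmp9. They were taken by symbol, and all 10 were present among the 13007 genes of the table. AEL libraries (n = 3) came from GFP-positive acute erythroid leukemia cells of bone marrow, labelled Trp53-/- and transduced to express ERG together with GFP. NC libraries (n = 3) came from wild-type erythroid precursors sorted from normal marrow with antibodies to CD71 and Ter119. The groups were therefore gated on different markers, and effects of gating and of leukemia cannot be told apart. All 6 libraries are labelled strain C57BL/6, and the source label of every one, NC included, names SETBP1 and ASXL1 mutations, which does not match the wild-type genotype given for NC. Age, sex, the vector's promoter, and whether each library was a separate animal or clone are not stated. The sample titles number the libraries as biological replicates. The edgeR p-values below set each difference between AEL and NC against the spread between libraries within the groups, for these 6 samples only.

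Granule proteins are stored in a developing neutrophil in the order in which their genes are transcribed. Primary granule proteins are made by promyelocytes, secondary granule proteins by myelocytes and metamyelocytes, and gelatinase granule proteins by band cells, so the 3 groups read out successive stages. The factors PU.1, C/EBP alpha, RUNX1 and MYB act on early granule genes, and C/EBP epsilon is required for the secondary granule genes. None of these genes belongs to the red cell programme, and neither CD71 nor Ter119 is used to select neutrophils.

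The promoters of these genes were searched for letters that PU.1, C/EBP, RUNX and GATA factors can bind, but not for MYB sites, since the genes moved together between libraries. RefSeq windows (GRCm38.p6, the assembly that mm10 names) of 300 bases, 250 before and 50 after the gene start, were found for 9 of the 10 genes, all but Mmp9. The letters GAGGAA, on either strand, which PU.1 and other ETS factors can bind, were in 7 of 9 windows, against 28.3% of all 32851 windows. All 4 primary genes had them. The letters TTNNGCAA, on either strand, a form of the C/EBP site, were in 4 of 9 windows, against 10.8% of all windows. These 4 were Ltf, Ngp, Lcn2 and Mmp8, and none of the 4 primary windows held them. The letters TGTGGT, which RUNX factors can bind, were in 2 of 9 windows, against 16.8% of all. An erythroid factor's letters, AGATAA, were in 1 of 9, that of Ltf, against 11.2% of all. Each search covered both strands. The 250 bases before the start are shown for 5 genes, each 5′ to 3′ in the direction of transcription, with GAGGAA and TTNNGCAA matches in capitals, to compare 2 neighbouring primary genes with 2 secondary genes and 1 tertiary gene. They lie at chr10:79886062-79886311 (Elane), chr10:79879417-79879666 (Prtn3), chr9:111019042-111019291 (Ltf), chr9:110419558-110419807 (Ngp) and chr9:7558179-7558428 (Mmp8), all on the plus strand.
Elane: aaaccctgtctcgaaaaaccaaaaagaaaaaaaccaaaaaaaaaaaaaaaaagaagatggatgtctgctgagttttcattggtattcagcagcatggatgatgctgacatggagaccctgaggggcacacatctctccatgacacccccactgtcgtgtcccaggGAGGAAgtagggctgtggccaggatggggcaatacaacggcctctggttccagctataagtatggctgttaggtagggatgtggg
Prtn3: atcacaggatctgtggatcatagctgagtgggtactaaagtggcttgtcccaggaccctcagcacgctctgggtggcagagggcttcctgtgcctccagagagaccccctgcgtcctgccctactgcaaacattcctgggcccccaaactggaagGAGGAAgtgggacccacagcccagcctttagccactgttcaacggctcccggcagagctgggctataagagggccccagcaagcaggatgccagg
Ltf: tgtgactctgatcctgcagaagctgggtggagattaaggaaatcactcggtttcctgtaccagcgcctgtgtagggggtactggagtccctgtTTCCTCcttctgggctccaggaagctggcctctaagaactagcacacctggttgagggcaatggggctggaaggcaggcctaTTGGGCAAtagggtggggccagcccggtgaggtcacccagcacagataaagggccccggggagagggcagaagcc
Ngp: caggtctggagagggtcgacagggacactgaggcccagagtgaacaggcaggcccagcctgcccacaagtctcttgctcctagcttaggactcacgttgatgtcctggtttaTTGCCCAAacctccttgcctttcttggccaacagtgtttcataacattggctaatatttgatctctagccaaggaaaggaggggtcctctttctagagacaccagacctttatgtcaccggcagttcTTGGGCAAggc
Mmp8: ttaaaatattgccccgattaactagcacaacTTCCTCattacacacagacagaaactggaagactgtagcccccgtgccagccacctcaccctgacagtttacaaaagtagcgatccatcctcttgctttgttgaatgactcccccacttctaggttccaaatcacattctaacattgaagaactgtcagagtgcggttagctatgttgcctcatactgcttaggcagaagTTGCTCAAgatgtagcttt
In Elane and Prtn3 the GAGGAA began 85 and 95 bases before the start. The C/EBP form began 75 bases before the start in Ltf, 138 and 11 bases before it in Ngp, and 19 bases before it in Mmp8. No 2 capitalized matches overlapped in these 5 stretches. A match of letters is a description and was not tested as a binding site.

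All 10 granule genes were lower in every AEL library than in every NC library, and 9 of the 10 passed the test, each at least 12.7-fold lower in AEL; 0 were higher. Over all 12427 genes tested, 52.8% were called in either direction, 29.0% lower and 23.9% higher in AEL, and 11.9% were called and at least 8-fold lower. Every AEL library lay below every NC library for 36.1% of genes, and above for 29.9%. Each member met the filter on low counts in the 3 NC libraries, where it was high, and Mpo, Ltf, Camp, Ngp and Lcn2 also met it in the 3 AEL libraries, so these counts describe the genes and support nothing further. The median log2 fold change (AEL over NC) was -3.98 over the 10 genes and -0.05 over all genes tested. Together the 10 genes took 0.00153%, 0.0763% and 0.00948% of counts in AEL replicates 1, 2 and 3, against 0.411%, 0.464% and 0.509% in NC replicates 1, 2 and 3. Levels of single genes are given as CPM, the count scaled by the library's total and its TMM factor. In these bulk samples fewer neutrophil-lineage cells and less granule RNA per cell cannot be told apart.

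**Figure D1:**
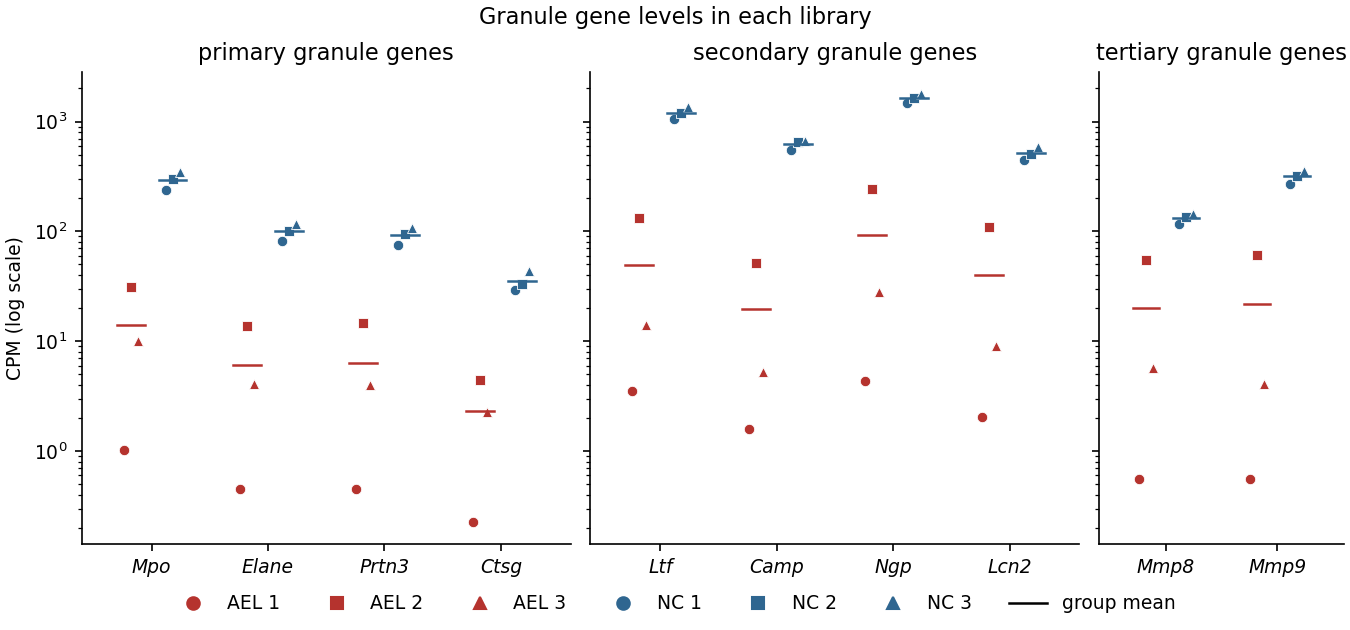
Level of each granule gene (CPM, log axis) in the 3 AEL (red) and 3 NC (blue) libraries, 1 panel per stage; marker shape is the replicate number and the short line is the group mean. Every red point lies below every blue point of its gene, and within AEL replicate 2 is highest and replicate 1 lowest for all 10 genes.

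Primary granule genes came first in the maturation order. Mpo encodes myeloperoxidase, which makes hypochlorous acid from hydrogen peroxide (chromosome 11, 87793784 to 87804412, GRCm38). It stood at 1.01, 30.9 and 9.98 CPM in AEL replicates 1, 2 and 3, against 236, 297 and 348 CPM in NC replicates 1, 2 and 3. The AEL libraries thus spanned a 30.5-fold range, the NC libraries a 1.48-fold range, and the groups did not overlap. Mpo fell by 4.39 on the log2 scale (SE 0.94, edgeR adjusted p = 0.00784), that is 21.0-fold. Elane, neutrophil elastase (chromosome 10, 79886312 to 79888216), had 0.450, 13.7 and 4.12 CPM in AEL and 82.4, 100.2 and 117 CPM in NC, and fell by 4.04 (SE 0.87, edgeR adjusted p = 0.00835). Prtn3, proteinase 3 (chromosome 10, 79879667 to 79883174), had 0.450, 14.7 and 4.03 CPM in AEL and 75.3, 94.6 and 108 CPM in NC, and fell by 3.86 (SE 0.90, edgeR adjusted p = 0.0110). These 2 serine proteases sit 3.14 kb apart and share no stretch of 50 bases in their annotated transcripts, and neither pair of groups overlapped.

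Ctsg, cathepsin G, the remaining serine protease of the primary granules, is on chromosome 14 (56099885 to 56102574). It was the gene with the fewest counts, with 2, 41 and 25 counts in AEL replicates 1, 2 and 3 or 0.225, 4.45 and 2.29 CPM, against 29.2, 33.1 and 43.8 CPM in NC. In AEL replicate 1 its 2 counts lie under the floor of 3 counts, 0.351 CPM in that library. Ctsg fell by 3.92 (SE 0.76, edgeR adjusted p = 0.00555). The calls of all 4 primary genes held without any 1 library, with log2 fold changes from -5.62 to -3.25. Mpo has an antisense partner, Gm11505, that overlaps its exons, and Prtn3 shares exon sequence with its neighbour Plppr3. Whether the counting used strand is not given in the sources used here, so reads of these partners could be included.

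Secondary granule genes were the most abundant of the 3 stages in NC and fell in AEL as well. Ltf encodes lactoferrin, an iron-binding protein (chromosome 9, 111019292 to 111042766). Its levels were 3.49, 132 and 14.0 CPM in AEL and 1047, 1206 and 1346 CPM in NC, and it fell by 4.59 on the log2 scale (SE 1.22, edgeR adjusted p = 0.0183). Camp, the cathelicidin antimicrobial peptide precursor (chromosome 9, 109847377 to 109849456), had the largest fall of the 10 genes, 31.8-fold. It had 1.58, 51.9 and 5.22 CPM in AEL and 547, 646 and 668 CPM in NC (log2 fold change -4.99, SE 1.16, edgeR adjusted p = 0.0110). Ngp, neutrophilic granule protein, related to the cathelicidins (chromosome 9, 110419808 to 110423012), had 4.39, 245 and 27.8 CPM in AEL and 1482, 1621 and 1792 CPM in NC, and fell by 4.14 (SE 1.27, edgeR adjusted p = 0.0311). Lcn2, lipocalin 2, which binds bacterial siderophores (chromosome 2, 32384637 to 32387739), had 2.03, 110.0 and 8.97 CPM in AEL and 447, 506 and 583 CPM in NC, and fell by 3.67 (SE 1.24, edgeR adjusted p = 0.0432). None of the 4 overlapped between the groups, and in each of them AEL replicate 2 stood far above the other AEL libraries, so the AEL means of 49.8 ± 71.2 CPM for Ltf and 92.5 ± 133 CPM for Ngp (SD, n = 3) rest mostly on that 1 library.

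Tertiary granule genes encode matrix metalloproteinases. Mmp9, gelatinase B (chromosome 2, 164940326 to 164955850), had 0.563, 60.7 and 4.12 CPM in AEL and 271, 319 and 358 CPM in NC, and fell by 3.86 (SE 1.29, edgeR adjusted p = 0.0411). Mmp8, neutrophil collagenase (chromosome 9, 7558429 to 7568486), whose human protein is classed with the specific granules, was the 1 member that did not pass. It had 0.563, 54.5 and 5.77 CPM in AEL and 116, 136 and 144 CPM in NC, with the log2 difference at -2.71 (SE 1.18, edgeR adjusted p = 0.0923). Its groups did not overlap either, and the spread within AEL was 96.8-fold. Without AEL replicate 2 the Mmp8 difference was -5.26 and passed (edgeR adjusted p = 0.00124). All 10 genes were then called lower, where 31.6% of all genes were, with log2 fold changes from -7.41 to -4.67. With limma voom on all libraries, which took a spread for each group, 10 members and 31.5% of all genes were called lower. The edgeR calls of Ngp, Lcn2 and Mmp9 ended without AEL replicate 3 or any single NC replicate. That of Ltf ended without NC replicate 3 (edgeR adjusted p = 0.0524). Thus 6 members were called without AEL replicate 3, 6 without NC replicate 1, 6 without NC replicate 2 and 5 without NC replicate 3. In these fits 3414, 2697, 2662 and 2682 of the 12427 genes tested were called lower.

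Levels per length were compared between the genes with the union of their annotated exons, in CPM per kilobase. In NC the order of mean levels was Ngp (1335 ± 127), Camp (818 ± 84.5), Ltf (348 ± 43.3), Lcn2 (195 ± 25.9), Elane (101 ± 17.5), Mmp9 (89.2 ± 12.2), Mpo (85.7 ± 16.5), Mmp8 (54.5 ± 5.92), Prtn3 (53.5 ± 9.56) and Ctsg (34.2 ± 7.33), each as SD with n = 3. The 4 secondary genes thus stood above all 6 others in NC, and each of these 4 was separated from its neighbour in that order by more than their spread. Elane was above Mmp9 and Mpo in each NC library, while Mmp9 and Mpo, and likewise Mmp8 and Prtn3, changed places between NC libraries. In AEL the genes were compared within each library, since all 10 share the spread between libraries. Ngp was first, at 3.59, 201 and 22.8 CPM per kilobase in AEL replicates 1, 2 and 3, and Camp second, at 2.08, 68.5 and 6.88. The order of the other genes differed between the AEL libraries. Mmp8, at 0.232, 22.5 and 2.38 CPM per kilobase, stood above Elane (0.458, 13.9 and 4.19) and Mpo (0.296, 9.04 and 2.91) in AEL replicate 2 and below both in AEL replicates 1 and 3.

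The AEL libraries kept one order throughout: replicate 2 was highest, then replicate 3, then replicate 1, for all 10 genes. Of the 3599 genes called lower in AEL, 26.1% had that order. As a percent of the NC mean, the members stood at 0.178% to 0.637% in AEL replicate 1, at 8.37% to 41.2% in replicate 2 and at 0.841% to 6.47% in replicate 3. Replicate 1 held between 2 and 39 counts per member. In AEL replicate 3 the 4 primary genes stood at 3.40% to 6.47% of the NC mean and the 4 secondary genes at 0.841% to 1.75%, with no overlap between the 2 stages. In AEL replicate 2 these stages overlapped, at 10.5% to 15.8% for primary and 8.37% to 21.5% for secondary genes, and the tertiary genes Mmp9 and Mmp8 stood at 19.2% and 41.2%.

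**Figure D2:**
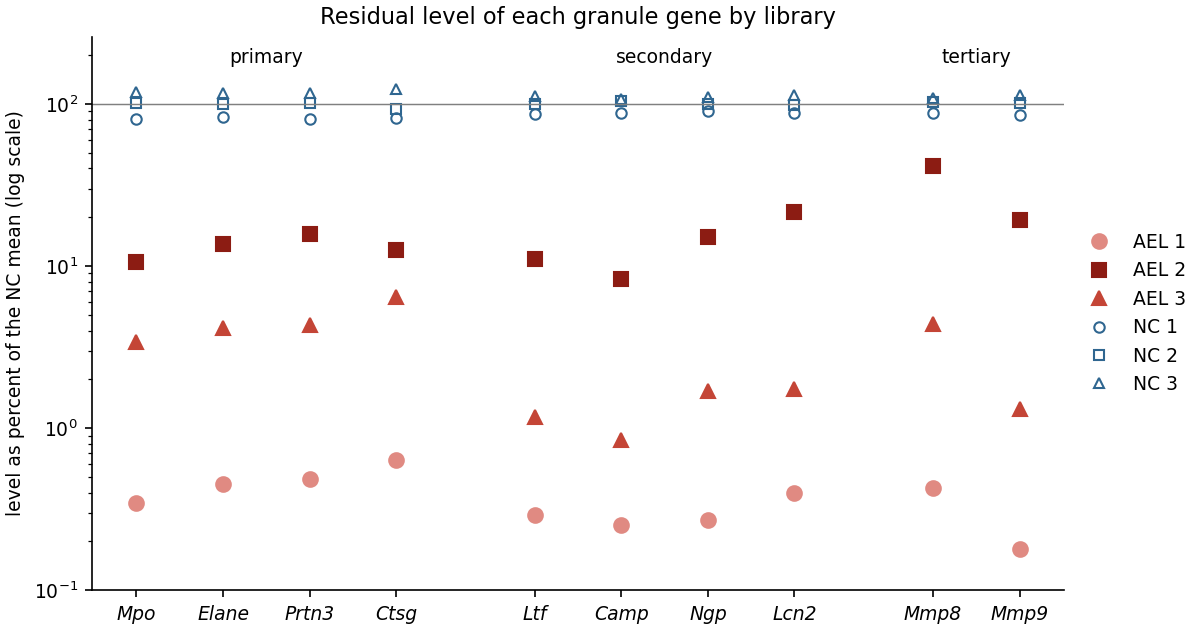
Level of each granule gene in each library as a percent of the NC mean of that gene (log axis), with genes ordered by stage; filled red markers are AEL libraries, open blue markers NC libraries, and the grey line is 100%. AEL replicate 3 holds the primary genes at 3.40% to 6.47% and the secondary genes at 0.841% to 1.75%, whereas in AEL replicate 2 Mmp8 stands highest, at 41.2%.

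The balance of stages was therefore given as the share of all counts of the 10 genes within a library, which needs no scaling between libraries. Primary genes made up 14.5% (exact binomial 95% interval 8.96% to 21.7%), 8.88% (8.20% to 9.59%) and 23.6% (21.0% to 26.5%) of these counts in AEL replicates 1, 2 and 3, and 9.75%, 10.6% and 11.2% in NC replicates 1, 2 and 3. AEL replicate 3 thus held the highest primary share of the 6 libraries, and AEL replicate 2 the lowest. Tertiary genes made up 7.63% (3.72% to 13.6%), 16.04% (15.2% to 17.0%) and 11.5% (9.49% to 13.7%) in AEL replicates 1, 2 and 3, against 8.95%, 9.18% and 9.11% in NC. Secondary genes held the rest, 77.9%, 75.1% and 64.9% in AEL and 81.3%, 80.2% and 79.7% in NC. The intervals cover counting error only, and a difference between single AEL libraries has no replicate check. For the primary genes AEL replicates 1 and 3 lay above all NC libraries and AEL replicate 2 below them, but the interval of AEL replicate 1 spans the NC values. With the most abundant gene of each stage left out, the primary share was 12.8%, 8.61% and 23.5% in AEL and 7.97%, 8.37% and 8.94% in NC, so AEL replicate 2 then lay within the NC range. The tertiary share of Mmp8 alone was then 6.41%, 14.3% and 12.99% in AEL and 4.96%, 5.01% and 4.79% in NC. In AEL replicate 1 the intervals of these shares, 6.32% to 22.3% for primary and 2.11% to 14.3% for tertiary, span the NC values.

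**Figure D3:**
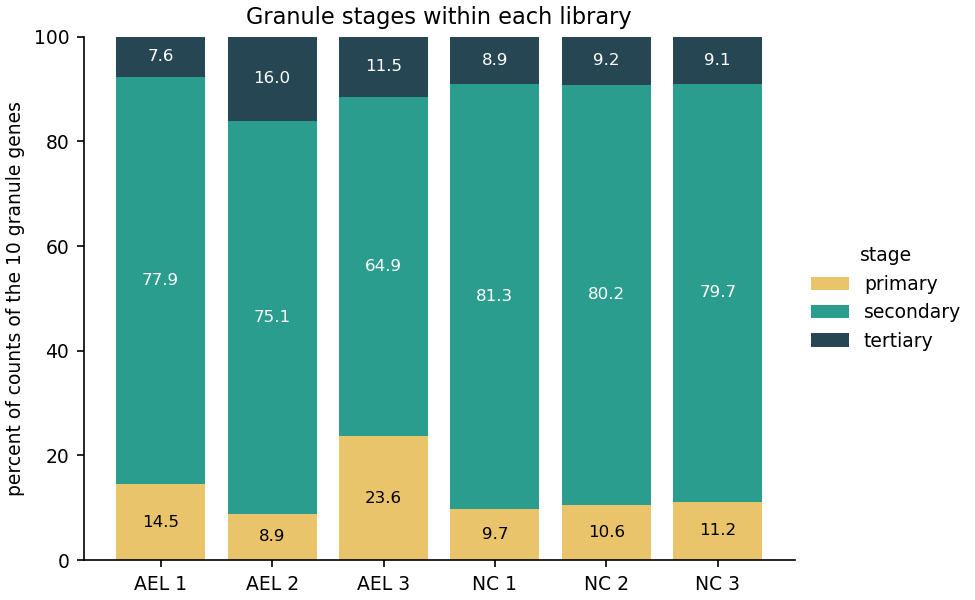
Share of primary, secondary and tertiary genes among the counts of the 10 granule genes in each library, in percent, AEL libraries left and NC libraries right. The 3 NC bars are nearly alike, with 9.75% to 11.2% primary counts, while AEL replicate 3 holds 23.6% primary and AEL replicate 2 holds 16.04% tertiary counts.

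Ratios of counts between pairs of these genes were close to constant in NC and departed from NC in AEL for some pairs. The Mmp8 to Mmp9 ratio was 1.00 (exact 95% interval 0.230 to 4.35), 0.898 (0.794 to 1.01) and 1.40 (0.940 to 2.10) in AEL replicates 1, 2 and 3, against 0.428, 0.428 and 0.403 in NC. Lcn2 to Ltf was 0.581 (0.306 to 1.07), 0.834 (0.767 to 0.908) and 0.640 (0.492 to 0.831) in AEL and 0.427, 0.419 and 0.433 in NC. In AEL replicate 1 the intervals of both ratios span the NC values. Mpo to Ltf, a ratio of an early to a later gene, was 0.290 (0.122 to 0.625), 0.235 (0.206 to 0.267) and 0.712 (0.552 to 0.917) in AEL, against 0.225, 0.246 and 0.259 in NC. Elane to Prtn3 was 1.00, 0.933 and 1.02 in AEL and 1.09, 1.06 and 1.08 in NC, the pair that differed least among those whose groups did not overlap. Of 11 pairs compared, chosen after the counts had been seen, 7 had groups that did not overlap, each at a two-sided exact permutation p = 0.100, the smallest that 3 against 3 allows (adjusted p = 0.157). No pair could have passed the threshold in this design.

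**Figure D4:**
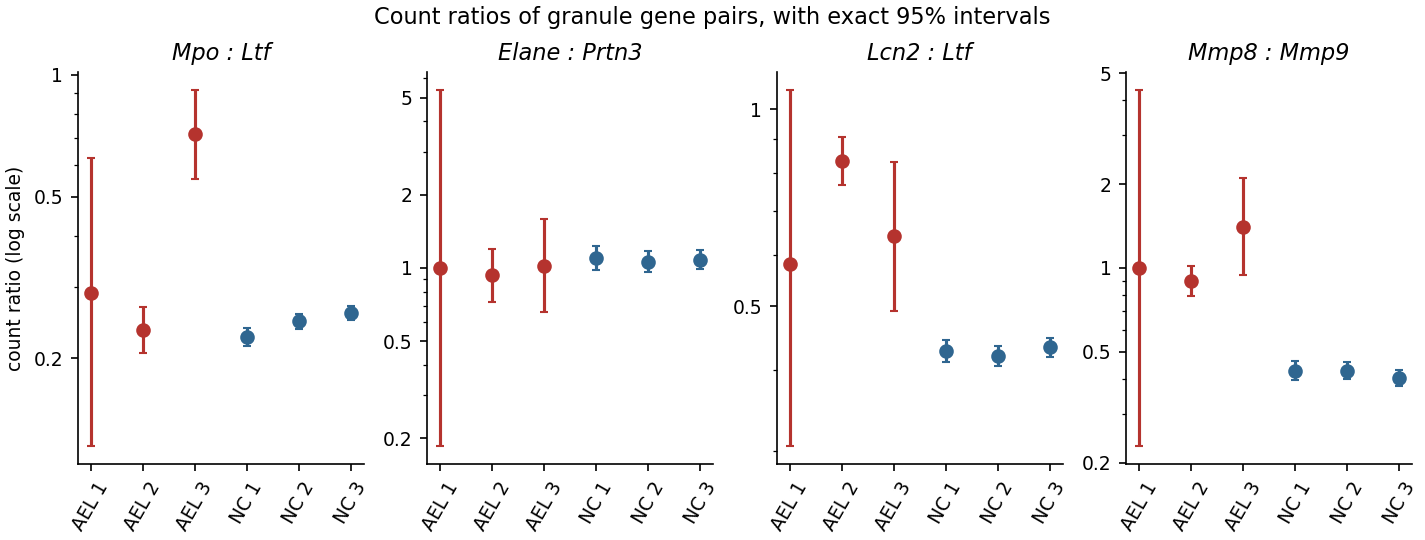
Count ratio of 4 gene pairs in each library (log axes, each panel with its own scale), AEL in red and NC in blue, with exact 95% intervals for counting error. Mmp8 to Mmp9 lies at 0.898 to 1.40 in AEL and 0.403 to 0.428 in NC, and Elane to Prtn3 lies near 1 in all 6 libraries.

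Other granule genes, listed by stage, had mostly lower values in AEL, beside a few that did not. Of 12 early granule companions listed 11 were in the table, of which 8 fell and 1 rose, with a list median log2 fold change of -3.55. Over all genes tested, 29.0% were called lower and 23.9% higher, so the 1 that rose is no more than that share. Lyz2, lysozyme, was at 4.95, 182 and 37.8 CPM in AEL and 1128, 1322 and 1398 CPM in NC, and fell by 4.10 (SE 1.11, edgeR adjusted p = 0.0197). Ctsc, the protease that activates elastase, proteinase 3 and cathepsin G, was at 0.788, 9.45 and 6.41 CPM in AEL and 145, 146 and 162 CPM in NC, and fell by 4.76 (SE 0.68). Srgn, serglycin, a proteoglycan that holds proteases in granules and is made by many blood cells, went the other way, with 289, 476 and 359 CPM in AEL and 150, 139 and 138 CPM in NC, and rose by 1.40 (SE 0.19, edgeR adjusted p = 0.0015).

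Of 13 specific granule companions 9 fell and 0 rose, with a list median of -3.58, beside 29.0% of all genes tested called lower and 23.9% higher. Anxa1, annexin A1, fell by 3.64 (SE 0.93). Cyba, the p22phox subunit of the NADPH oxidase, was at 161, 128 and 173 CPM in AEL and 142, 161 and 181 CPM in NC and its groups overlapped (log2 fold change -0.07, SE 0.15). Chil3, a chitinase-like protein of neutrophils and monocytes, was at 4.05, 267 and 43.7 CPM in AEL and 345, 394 and 432 CPM in NC, and did not pass (-1.90, SE 1.14, edgeR adjusted p = 0.201). B4galt1, a galactosyltransferase, did not pass either (-0.32, SE 0.24). Of 14 gelatinase granule and secretory vesicle companions 10 fell and 0 rose, with a median of -3.65. Among them Itgb2, the CD18 integrin chain, fell by 3.09 (SE 0.60) and Slc11a1, the NRAMP1 metal transporter, by 5.58 (SE 0.93), while Retnlg (-3.67, edgeR adjusted p = 0.0502) and Itgam, the CD11b chain (-3.14, edgeR adjusted p = 0.0555), did not pass. Without NC replicate 1, 2 or 3, in turn, 6 of these 14 gelatinase and secretory genes were called lower. Of the 13 specific granule companions 5 were called without NC replicate 2 and 4 without NC replicate 3. Of all 12427 genes tested, 2697, 2662 and 2682 were called lower without NC replicates 1, 2 and 3.

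Regulators of granulocyte development split. Of 12 listed, 8 fell and 2 rose, with a median of -3.81. Over all genes tested, 29.0% were called lower and 23.9% higher, so the 2 that rose are no more than that share. Csf3r, the G-CSF receptor, was at 0, 16.1 and 1.10 CPM in AEL and 114, 133 and 147 CPM in NC, and fell by 4.53 (SE 1.21). The others that fell were Cebpa, Cebpb, Cebpd, Cebpe, Gfi1, Spi1, which encodes PU.1, and Irf8. Of these Cebpe, picked with its values known, stood at 0, 1.30 and 0.275 CPM in AEL and 25.8, 31.0 and 30.9 CPM in NC, and fell by 5.77 (SE 0.83). Myb rose by 2.11 (SE 0.17, edgeR adjusted p = 0.000266), with 344, 520 and 432 CPM in AEL and 97.1, 104 and 98.4 CPM in NC. Runx1 rose by 1.37 (SE 0.20), with 186, 135 and 111 CPM in AEL and 56.1, 51.2 and 59.4 CPM in NC. Cebpg (-0.16, SE 0.21) and Klf5 (-0.21, SE 0.27) did not pass. Of the factors named above for early granule genes, Myb and Runx1 were thus higher in AEL. Spi1 (-3.79, SE 0.88) and Cebpa (-3.84, SE 0.91) were lower. The part of any of these factors in the granule gene levels was not tested.

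**Figure D5:**
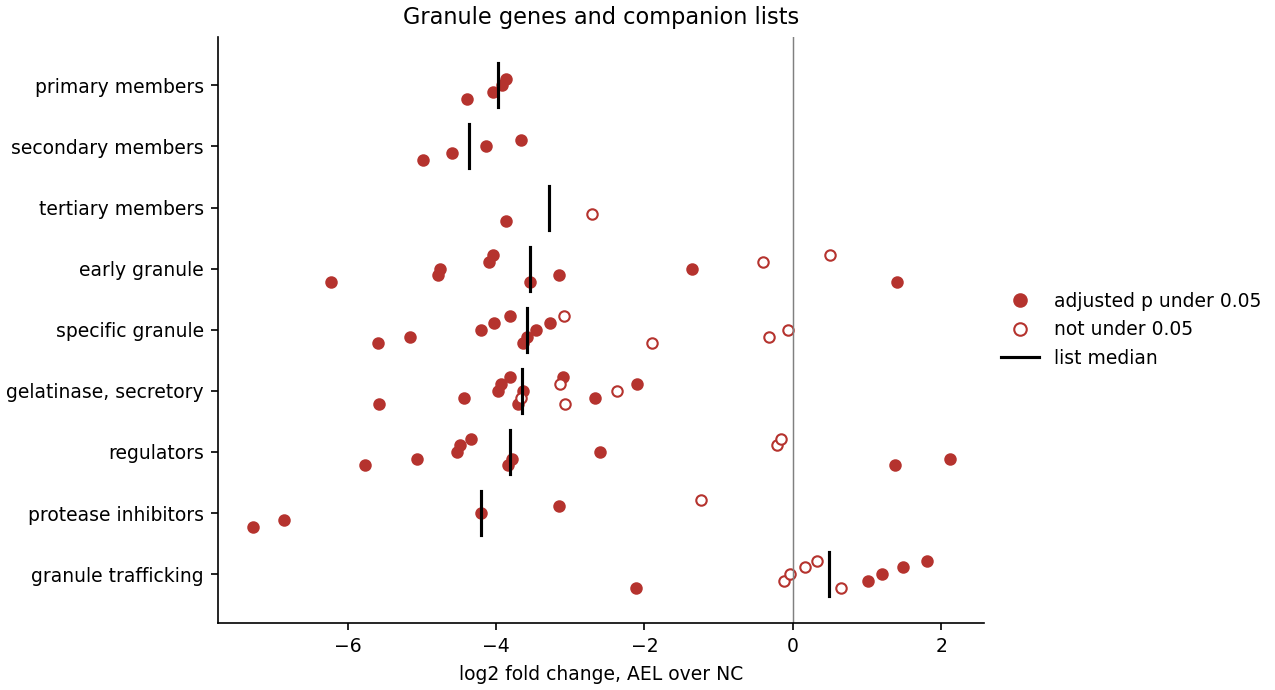
Log2 fold change (AEL over NC) of each granule gene and of the genes of 6 companion lists; filled points passed at an adjusted p under 0.05, open points did not, and black bars are list medians. The 5 lists of granule companions, regulators and protease inhibitors have medians of -4.21 to -3.55, where Srgn, Myb and Runx1 are the filled points to the right of 0, and the granule trafficking list has a median of 0.49.

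Genes whose profile over the 6 libraries was closest to each stage were found by the root mean square difference of centred log2 CPM, among the 8561 genes whose mean reached 10 CPM. For the primary stage these were App (0.0826), Abr (0.0907), Rgs19 (0.123), Gstm1 (0.134) and Tpd52 (0.136), where the 4 primary genes themselves differed from their mean profile by 0.0619 to 0.344. For the secondary stage they were Itgb2l, Chil1, Pglyrp1, Plbd1 and Fgr, from 0.177 to 0.314, where the 4 secondary genes themselves differed by 0.0997 to 0.285. For the tertiary stage they were Nfam1, Cd177, Ncf1, Slfn4 and Pglyrp1, from 0.179 to 0.284. Mmp8 and Mmp9 each differed from their own mean profile by more, 0.352. Abr, Rgs19, Gstm1, Itgb2l and Chil1 were at 0 CPM in AEL replicate 1 and reached the mean of 10 CPM only through NC. Pglyrp1, a peptidoglycan recognition protein, was in both of the later lists, and its levels were 0.225, 17.7 and 1.83 CPM in AEL and 88.9, 104 and 109.6 CPM in NC.

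Markers of other marrow cell types moved between the groups as well. The counts called below stand beside 29.0% of all genes tested called lower and 23.9% called higher. Monocyte markers (8 genes) summed to 3.94, 131 and 40.8 CPM in AEL replicates 1, 2 and 3, in the same order of libraries as the granule genes, and to 468, 525 and 599 CPM in NC. Of these 5 fell and 3 did not pass. The markers of tissue macrophages (8 genes, all 8 fell) summed to 1.46, 7.49 and 34.2 CPM in AEL and 3055, 3278 and 3567 CPM in NC, with Spic at 0 in all AEL libraries. B cell markers (8 genes, all 8 fell) summed to 1.58 to 2.38 CPM in AEL and 197 to 237 CPM in NC. Eosinophil markers (5 of 8 in the table, all 5 fell) summed to 0.225 to 1.30 CPM in AEL and 166 to 200 CPM in NC, with Epx and Ccr3 at 0 in AEL. Mast cell and basophil markers (6 of 8 in the table, 2 of 5 tested fell) summed to 3.49, 2.28 and 22.2 CPM in AEL and 60.6 to 70.7 CPM in NC. The 2 that fell were Mcpt8 and Prss34. Fcer1a, Ms4a2 and Cpa3 did not pass, at 485%, 239% and 117% of the NC mean in AEL replicate 3. They stood at 0% to 30.2% in AEL replicates 1 and 2. Cma1, not tested, was at 2.36, 0.109 and 3.11 CPM in AEL and 0 in NC. The eosinophil sum followed the order of AEL replicates shown by the granule genes, and the macrophage, B cell and mast cell sums did not. These orders rest on few reads or single genes. No eosinophil marker had more than 8 counts in any AEL library, and Prg2 (0.225, 0.434 and 0.732 CPM) was highest in AEL replicate 3. Mrc1 alone gave 28.6 CPM of the macrophage sum in AEL replicate 3. Erythroid markers (8 genes, 6 fell) summed to 3345, 1873 and 1874 CPM in AEL and 8697 to 10538 CPM in NC, so red cell markers were present in both groups and lower in AEL. Progenitor markers (7 of 8 in the table, 2 of 6 tested fell and Kit rose) summed to 195, 180 and 243 CPM in AEL and 86.8 to 95.05 CPM in NC. The 2 that fell were Cd34 (log2 fold change -3.43) and Flt3 (-1.98). Kit gave 58.1, 145 and 205 CPM of the sum in AEL replicates 1, 2 and 3. In AEL replicate 1 Cd48 gave 83.4 CPM and Ctla2a 44.9 CPM, and neither passed. The sum stood at 195% to 264% of the NC mean in the AEL libraries, but the median marker at 30.3% to 61.1%. The higher sum thus rests on a few genes. The part of these cell types in the granule gene results was not tested.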

How the data were processed

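RNA-seq of 6 sorted marrow samples (3 AEL, 3 NC) was analysed from 1 table of gene counts deposited by the authors; its values are whole numbers with unequal library totals, although the table is named for CPM. Libraries were made with poly-T beads and random hexamer primers, per the labels' protocols. The genome mm10 and edgeR 3.32.1 are named in the submitters' processing notes, with no role given. No source used here gives the aligner, the counting tool or strandedness.

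Library totals were 8541477 to 9945330 counts in AEL and 8171676 to 9385507 in NC, so 3 counts equal 0.302 to 0.367 CPM. Genes with at least 1 CPM in 3 libraries (12427 of 13007) were tested with edgeR 4.0.16 (R 4.3.3): TMM scaling, quasi-likelihood test, groups alone as design, Benjamini-Hochberg adjusted p under 0.05. CPM were computed from totals times TMM factors, and SE as the absolute log2 fold change over the square root of F. Stage shares and ratios have exact binomial intervals for counting error; pair ratios were tested by exact permutation. The scripts were tested on simulated data. No 2 libraries agreed within sampling noise.

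The members, companion lists and marker lists were chosen with earlier results of these data known. Named were all members, up to 4 genes per companion list by mean CPM, any called gene going against its list, and the 5 genes most like each stage. Some genes that this rule names are not reported here. Alternatives were other scalings and filters, a robust fit, DESeq2 1.42.0, a replicate block and each library left out. Others were limma 3.58.1 (voom, with a spread for each group) and stage shares without each stage's most abundant gene. Promoter sequences and gene positions came from RefSeq. Exon lengths, exon overlaps and transcript sequences came from the GENCODE annotation of GRCm38.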

Additional observations from a re-analysis of the deposited data

How the results depend on the processing

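All 10 granule genes kept a lower value in AEL under every alternative run. The number of members called lower was 9 as reported, where 3599 of 12427 genes tested were called lower. It was also 9 with median-of-ratios scaling (3604 genes called lower), library totals alone (3080) and the robust fit (3592). Without AEL replicate 1 (3552) and with DESeq2 (3760, with 26 genes lacking an adjusted p) it was 9 as well. With no filter (3776 of 13007 genes) and a filter at 10 CPM (2515 of 9193) it was again 9. With the replicate block (3238) and limma voom (3910) it was 10, and Mmp8 passed at log2 fold changes of -4.13 and -4.48. Leaving out 1 library at a time gave 5 to 10 members, 1915 to 3375 genes called higher (2964 with all libraries), and log2 fold changes of -7.01 to -3.98 for Ltf, -6.57 to -3.52 for Ngp, -6.44 to -3.05 for Lcn2, -5.26 to -2.08 for Mmp8 and -6.94 to -3.23 for Mmp9. Genes called lower numbered 2662 to 3921. The cause of these changes was not tested. With library totals alone the median of all genes was 0.14 in place of -0.05, and the higher share of all calls was 55.2% in place of 45.2%, while the members lay at -4.80 to -2.52.

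Same-numbered replicates did not pair: the correlations of their deviations from the group means were 0.0824, -0.0167 and -0.0314. With the replicate block 2241 genes were called higher and 3238 lower. Not every library correlated best with its own number. Without the most abundant gene of each stage the primary share moved to 7.97%, 8.37% and 8.94% in NC replicates 1, 2 and 3. The tertiary share then moved to 14.3% in AEL replicate 2 and to 4.96%, 5.01% and 4.79% in NC replicates 1, 2 and 3. Low counts limit AEL replicate 1 most, where Elane and Prtn3 had 4 counts each, Ctsg 2, and Mmp8 and Mmp9 5 each. The total of that library, 8541477 counts, was above that of NC replicate 1, 8171676.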

Other observations

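Of 10 listed genes for granule transport and release, 4 rose, 1 fell and 5 did not pass, with a median log2 fold change of 0.49. The 5 called of 10 are near the 52.8% called over all genes tested (23.9% higher and 29.0% lower in AEL). Unc13d, the Munc13-4 protein that primes granules for release, was at 293, 306 and 238 CPM in AEL and 76.8, 84.0 and 78.6 CPM in NC, and rose by 1.81 (SE 0.13, edgeR adjusted p = 0.000207). Ap3b1, a subunit of the AP-3 sorting adaptor, rose by 1.203 (SE 0.21). G6pc3, a glucose-6-phosphatase, rose by 1.48 (SE 0.15) and Vps13b by 1.02 (SE 0.16); both were named after their values were seen. Rab27a, a GTPase of granule docking, fell by 2.12 (SE 0.24), with 7.09, 8.03 and 5.40 CPM in AEL and 26.4, 31.7 and 31.0 CPM in NC. Vamp8 (-0.03, SE 0.12) and Stxbp2 (-0.12, SE 0.12), both of the fusion machinery, did not pass.

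Of 8 listed inhibitors of proteases, 5 were tested, and Serpina1a, Timp1 and A2m were not analysed here. Of the 5, 4 fell and 1 did not pass, with a median of -4.21, beside 29.0% of all genes tested called lower. Timp2, an inhibitor of matrix metalloproteinases, was at 0.113, 1.41 and 0.458 CPM in AEL and 67.9, 70.4 and 95.3 CPM in NC, and fell by 6.86 (SE 0.58, edgeR adjusted p = 0.000333). Serpinb1a, which inhibits elastase, proteinase 3 and cathepsin G, was at 0.338, 11.5 and 4.94 CPM in AEL and 40.1, 50.7 and 58.2 CPM in NC, and fell by 3.15 (SE 0.87). Slpi, an elastase inhibitor also in the specific granule list, fell by 4.21 (SE 0.91). Serpina3g was at 0, 0 and 0.183 CPM in AEL, under the floor, and 9.29, 16.8 and 11.8 CPM in NC. Reck did not pass (-1.24, edgeR adjusted p = 0.0532).

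Among the monocyte markers, 2 stood in AEL replicate 2 near the NC mean, and were named after their values were seen. F13a1, coagulation factor XIII A, was at 0.338, 46.4 and 15.6 CPM in AEL and 35.1, 43.5 and 53.7 CPM in NC. Ccr2, a chemokine receptor, was at 2.25, 30.1 and 9.61 CPM in AEL and 27.3, 34.4 and 37.0 CPM in NC. Neither passed the test.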
